A study of Homo sapiens with 6 samples.

Results

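The AUTS2 family (AUTS2, FBRSL1 and FBRS) and the TOX family (TOX, TOX2, TOX3 and TOX4) are nuclear regulators, and these 7 genes were followed among the 18417 genes measured in HT29, an established cell line from a human colorectal adenocarcinoma. Each gene was read from the probe set that the platform annotation gives to that gene symbol alone, and TOX2, with 2 such probe sets, from the brighter one. The set was chosen by the differences of AUTS2 and TOX3, which were already known to be lower in this comparison, and filled up with their relatives, so the members' differences are a description and no p value is given for them. Of the 6 arrays, 3 came from HT29 cells carrying a laminin α1 expression construct and 3 from HT29 cells carrying a control construct. All were grown for 7 days, and the 3 arrays of a group are separate culture passages. What the construct carried, and how many clones stand behind a group, is not given here. P values of other genes therefore measure the spread between passages of the cells at hand. Laminin α1 is one of the chains that build laminin, a basement membrane protein, and the title of the series asks what it changes in colorectal cancer cells.

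AUTS2 is a nuclear protein that joins a variant form of Polycomb repressive complex 1 (PRC1), the ubiquitin ligase of histone H2A, and in neurons turns that complex toward activation by bringing in casein kinase 2 and the acetyltransferase EP300. In mouse neurons a cytoplasmic pool of AUTS2 also acts on the small GTPases RAC1 and CDC42, which shape the actin cytoskeleton. FBRS (fibrosin) and FBRSL1 (fibrosin-like) are its paralogs and have been found with the same PRC1 complexes. The TOX proteins share a single HMG box, a domain that bends DNA. TOX directs T cell development and exhaustion, TOX2 acts in natural killer and follicular helper T cells, TOX3 works with the transcription factor CREB and is expressed in luminal epithelial cells of the breast, and TOX4 is a subunit of the PTW/PP1 phosphatase complex that acts on RNA polymerase II.

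The RefSeq promoter table (GRCh38.p14, 250 bases before to 50 after the gene start) held 4 of the 7 members, AUTS2, FBRSL1, TOX2 and TOX4. The promoters of AUTS2 and its paralog FBRSL1 are shown because the expression of these relatives stood apart between the groups for AUTS2 and overlapped for FBRSL1. Capitals mark GGGCGG, the GC box, on either strand.
AUTS2, chr7:69598225-69598524, plus strand: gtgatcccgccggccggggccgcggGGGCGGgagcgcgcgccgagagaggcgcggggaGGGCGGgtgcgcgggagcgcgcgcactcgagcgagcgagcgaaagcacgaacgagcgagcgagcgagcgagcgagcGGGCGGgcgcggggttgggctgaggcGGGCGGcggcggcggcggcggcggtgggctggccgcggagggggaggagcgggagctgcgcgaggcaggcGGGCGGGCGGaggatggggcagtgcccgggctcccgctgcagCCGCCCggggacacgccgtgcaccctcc
FBRSL1, chr12:132489901-132490200, plus strand: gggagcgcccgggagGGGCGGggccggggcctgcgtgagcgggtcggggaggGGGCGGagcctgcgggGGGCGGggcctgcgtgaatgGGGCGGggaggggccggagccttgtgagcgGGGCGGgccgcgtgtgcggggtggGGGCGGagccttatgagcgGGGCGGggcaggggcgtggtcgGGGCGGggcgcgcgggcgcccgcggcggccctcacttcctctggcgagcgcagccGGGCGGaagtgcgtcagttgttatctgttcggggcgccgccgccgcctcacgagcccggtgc
The GC box occurred 7 times in the AUTS2 window, with overlapping copies counted, and 9 times in the FBRSL1 window. It was found in 45.0% of all 35116 promoter windows of that length. GC content was 82.3% in AUTS2 and 80.7% in FBRSL1, against a median of 58.7% over all windows, and the number of CpG dinucleotides was 55 in AUTS2 and 43 in FBRSL1, against a median of 14. TOX2 and TOX4 had 68.0% and 61.3% GC, with 33 and 19 CpG dinucleotides. The letters TGACG, the core of the element bound by CREB, were absent from the AUTS2 window and occurred once in FBRSL1 and TOX4 and 2 times in TOX2, and 24.6% of all windows held them. The E-box CAGCTG was present in TOX2 alone of the 4 (17.9% of all windows), CCAAT in TOX4 alone (34.6%), and TATAAA in none of the 4 (11.5%). Both strands were searched, and a match describes these letters only.

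LAMA1, which encodes the laminin α1 chain, had log2 values of 5.79, 5.72 and 5.71 in the laminin α1 arrays, against 5.71, 5.63 and 5.60 in the control arrays. The difference of 0.09 (95% interval -0.05 to 0.24, n = 3 per group) did not pass in limma (adjusted p = 0.535), and whether the LAMA1 probes match the construct is not given, so LAMA1 does not check the labels. Of 13812 genes whose mean level over the 6 arrays exceeded the 25th percentile, log2 5.50, 730 passed at an adjusted p under 0.05, 372 higher and 358 lower in the laminin α1 arrays. The 9 colon epithelial markers all lay above that level, and their mean per array ranged from 10.5 to 10.6 in both groups. KRT20, a keratin of differentiated colon epithelium, fell to 10.8 ± 0.05 in laminin α1 arrays, against 11.1 ± 0.03 in control arrays (SD, n = 3 each; limma adjusted p = 0.00863), the 1 marker of the 9 that passed (11.1%, against 5.29% of all genes tested). That call was lost without laminin α1 replicate 2 (adjusted p = 0.0597) or control replicate 2 (adjusted p = 0.0631). The other 8 did not pass, CDX2 and CDX1, transcription factors of intestinal identity, among them with differences of 0.03 and -0.0011. In limma, none of 4 tested fibroblast markers, 2 tested endothelial and leukocyte markers and 3 tested neural markers passed. Of them 0, 1 and 1 had an unadjusted p under 0.05, a level that 16.7% of all genes tested reached. They were CD14, at 7.13 in laminin α1 and 6.93 in control arrays (limma adjusted p = 0.284), and GFAP, at 6.72 in laminin α1 and 6.52 in control arrays (adjusted p = 0.151). The groups did not overlap for either gene, and both are named after their values were seen. The mean per array of the fibroblast list was 5.40 to 5.47 in laminin α1 and 5.33 to 5.45 in control arrays. That of the endothelial and leukocyte list was 5.39 to 5.43 in laminin α1 and 5.37 to 5.40 in control arrays, with PTPRC, the pan-leukocyte marker, at 3.55 in laminin α1 and 3.65 in control arrays. The neural list lay at 5.60 to 5.66 in laminin α1 and 5.60 to 5.67 in control arrays.

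Within the 7 members, 3 were lower in the laminin α1 arrays with no overlap between the groups (AUTS2, TOX3 and TOX), and the other 4 overlapped. Over all 18417 genes measured, the laminin α1 arrays lay wholly below the control arrays for 10.3%. Of the 6 members tested, 2 passed as lower (AUTS2 and TOX3), 0 passed as higher, and 4 did not pass. Of all genes tested, 2.59% passed as lower and 2.69% as higher. TOX, the remaining member, was below the level filter and was not tested. These counts carry no weight of their own, since AUTS2 and TOX3 were picked for this difference.

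**Figure D1:**
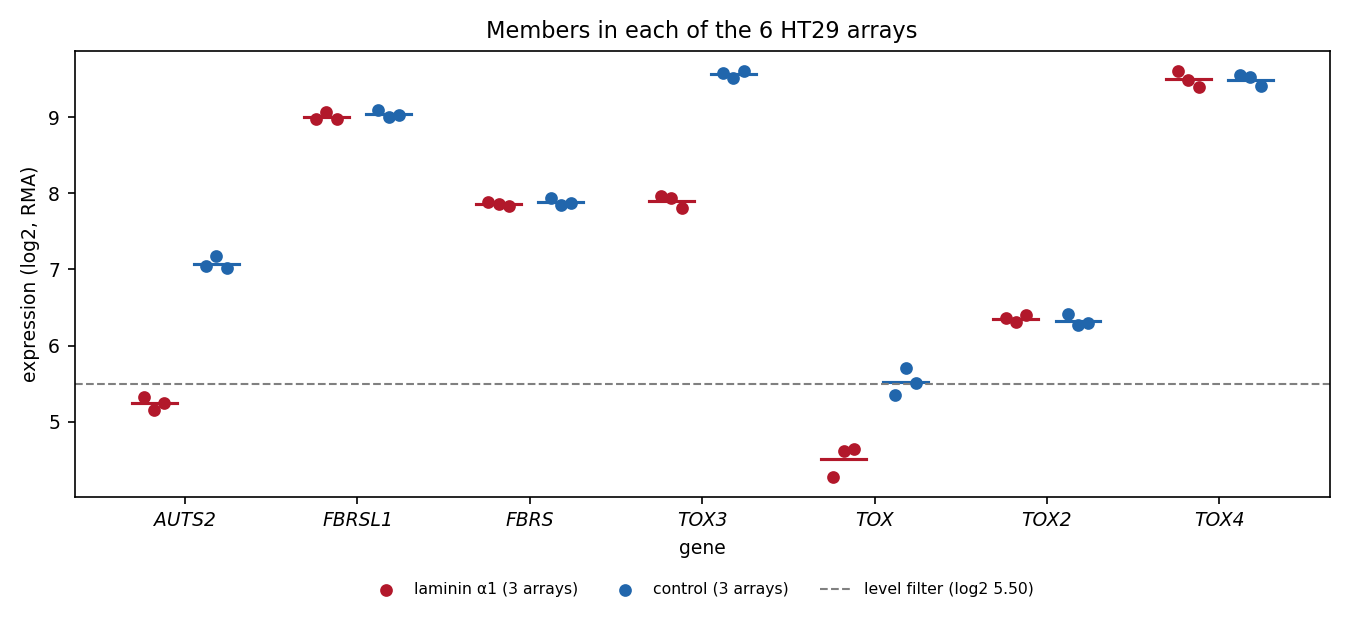
Log2 expression of the 7 members (x axis) in each array, with 3 laminin α1 arrays as red points left of 3 control arrays as blue points, bars at the group means and a dashed line at the level filter of 5.50. AUTS2, TOX3 and TOX are lower in all 3 laminin α1 arrays than in any control array, and AUTS2 lies on the other side of the filter level in the 2 groups.

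AUTS2 had log2 values of 5.32, 5.16 and 5.25 in the laminin α1 arrays, against 7.05, 7.17 and 7.02 in the control arrays. All 3 laminin α1 arrays were low and all 3 control arrays high, and the nearest arrays of the 2 groups were 1.69 apart. The mean was 5.24 ± 0.08 in laminin α1 and 7.08 ± 0.08 in control arrays (SD, n = 3 each). The log2 difference was -1.84 (SE 0.07, 95% interval -2.00 to -1.67), or 3.57-fold lower. Counted from the lowest, this difference was number 7 of the 13812 genes tested. Because the laminin α1 mean lay below the level filter, where signal is low, the size is uncertain, and with 5.50 as the floor AUTS2 was at least 2.99-fold lower.

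The paralogs of AUTS2 showed no such gap. FBRSL1 had 8.98, 9.07 and 8.97 in the laminin α1 arrays, against 9.10, 9.01 and 9.03 in the control arrays, and the groups overlapped. The FBRSL1 difference was -0.04 (SE 0.06, 95% interval -0.18 to 0.10). FBRS had 7.89, 7.86 and 7.83 in the laminin α1 arrays, against 7.94, 7.84 and 7.87 in the control arrays. Its groups overlapped as well, with a difference of -0.03 (SE 0.06, 95% interval -0.17 to 0.11). Both intervals leave room for changes of up to about their bounds in either direction, so a small shift of either paralog could not be seen with 3 arrays a group.

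In the TOX family, TOX3 had 7.97, 7.94 and 7.80 in the laminin α1 arrays, against 9.58, 9.52 and 9.61 in the control arrays. The groups were 1.54 apart at their nearest arrays. Means were 7.91 ± 0.09 in laminin α1 and 9.57 ± 0.05 in control arrays (SD, n = 3 each), both well above the level filter. TOX3 was 3.17-fold lower, a log2 difference of -1.66 (SE 0.07, 95% interval -1.82 to -1.51), number 11 from the lowest of all genes tested. Within groups the pooled SD was 0.08 for AUTS2 and 0.07 for TOX3, close to the median of 0.09 over all genes tested.

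TOX, on chromosome 8, had 4.28, 4.61 and 4.64 in the laminin α1 arrays, against 5.36, 5.71 and 5.51 in the control arrays. The lowest control array stood 0.71 above the highest laminin α1 array. TOX spread more within groups than the other members, with an SD of 0.20 in laminin α1 and 0.18 in control arrays. In a fit without the level filter the difference was -1.01 (SE 0.11, 95% interval -1.27 to -0.76), or 2.02-fold lower, and TOX passed in that fit, in which 2.07% of 18417 genes passed as lower. The control mean of 5.52 lay at the filter level and the laminin α1 mean of 4.51 below it, so with 5.50 as the floor TOX was at least 1.02-fold lower, and its size is uncertain.

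TOX2 and TOX4 had values that overlapped between the groups. TOX2 had 6.36, 6.31 and 6.40 in the laminin α1 arrays, against 6.42, 6.27 and 6.30 in the control arrays, a difference of 0.03 (SE 0.07, 95% interval -0.12 to 0.18). Its dimmer probe set had 6.01, 6.06 and 5.96 in the laminin α1 arrays, against 6.04, 6.10 and 6.08 in the control arrays, with a difference of -0.06. The 2 probe sets thus differed in sign, and both overlapped between the groups. TOX4 had 9.61, 9.49 and 9.40 in the laminin α1 arrays, against 9.55, 9.52 and 9.41 in the control arrays. The TOX4 difference was 0.0041 (SE 0.08, 95% interval -0.16 to 0.17). In bulk cultures, fewer cells with a transcript and less of it per cell cannot be told apart, which touches AUTS2, TOX3 and TOX alike.

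**Figure D2:**
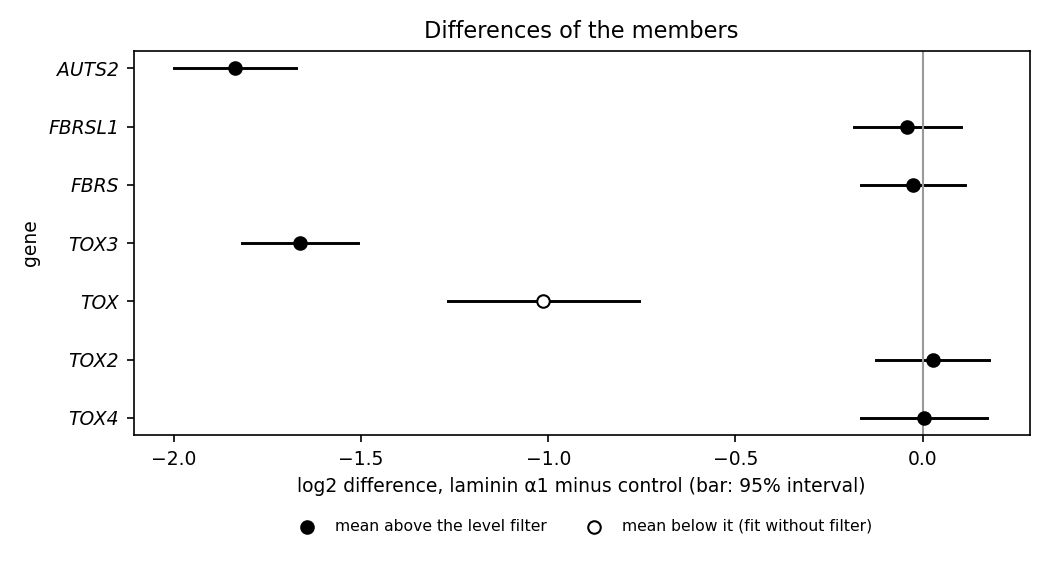
Log2 difference, laminin α1 minus control (x axis), of each member, with 95% intervals of the limma fit (n = 3 arrays per group). AUTS2 at -1.84 and TOX3 at -1.66 lie far below 0, TOX at -1.01 is drawn open because its mean was below the level filter, and the intervals of FBRSL1, FBRS, TOX2 and TOX4 include 0.

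The members lie on 6 chromosomes (AUTS2 on 7, TOX on 8, FBRSL1 on 12, TOX4 on 14, FBRS and TOX3 on 16, TOX2 on 20), and the genes beside them were read to see whether they moved too. For each member these were the 10 measured genes on either side in the RefSeq order, 140 in all, of which 117 were tested. Of these, 3 passed, 2 higher and 1 lower, or 2.56%, against 5.29% of all genes tested, and their median difference was -0.01. None of the 18 tested neighbours of AUTS2 passed the limma test, and 2 had an unadjusted p under 0.05, a level that 16.7% of all genes tested reached. Their differences ranged from -0.26 to 0.25. The ends of that range were TPST1 (-0.26, limma adjusted p = 0.0682) and SPDYE7P (0.25, adjusted p = 0.171). Both are named after their values were seen, and the groups did not overlap for either. STAG3L4, which has close copies that could share its probes, and GALNT17, a glycosyltransferase, flank AUTS2 and had differences of 0.07 (adjusted p = 0.858) and -0.02 (adjusted p = 0.948). They are named for their position, after their values were seen, as are the flanking genes of TOX3 and TOX-DT.

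None of the 19 tested neighbours of TOX3 passed in limma either, with 4 at an unadjusted p under 0.05 and differences from -0.22 to 0.15. These 4, named after their values were seen, were TENT4B (-0.22, limma adjusted p = 0.0768), RBL2 (-0.22, adjusted p = 0.173), CYLD (-0.15, adjusted p = 0.295) and AKTIP (0.15, adjusted p = 0.279). Groups did not overlap for 6 of the 19, against 21.6% of all genes tested. SALL1, a zinc finger transcription factor, and CHD9, a chromatin remodeller, flank TOX3 and had differences of 0.09 (adjusted p = 0.621) and -0.17 (adjusted p = 0.518). Around TOX, 2 of 13 tested neighbours passed (15.4%, against 5.29% of all genes tested), in opposite directions. CLVS1, a lipid-binding protein of clathrin-coated vesicles, had 6.43, 6.35 and 6.66 in the laminin α1 arrays, against 5.55, 5.65 and 5.58 in the control arrays. CLVS1 rose 1.85-fold (limma adjusted p = 0.000186), with no overlap between groups. NSMAF, an adaptor of the tumour necrosis factor receptor, had 9.13, 8.97 and 9.01 in the laminin α1 arrays, against 9.31, 9.33 and 9.28 in the control arrays. NSMAF, next to TOX, fell 1.21-fold (limma adjusted p = 0.0451), and its call was lost without any 1 of 5 arrays, that is without laminin α1 replicate 2 (adjusted p = 0.217) or 3 (adjusted p = 0.0627), or control replicate 1 (adjusted p = 0.129), 2 (adjusted p = 0.204) or 3 (adjusted p = 0.0968). With every array kept, the NSMAF call was also lost when all probe sets were tested separately (limma adjusted p = 0.105). The same held with arrays centred on their medians (adjusted p = 0.0641) and with trended and robust variances (adjusted p = 0.0569). TOX-DT, a transcript divergent from TOX, did not pass at 6.53 in laminin α1 and 6.49 in control arrays (limma adjusted p = 0.880). CA8, a carbonic anhydrase-related protein 2 places from TOX that is named after its values were seen, was below the level filter and not tested. It had 4.22, 4.37 and 4.44 in the laminin α1 arrays, against 4.89, 5.01 and 5.10 in the control arrays, and the groups did not overlap. In the limma fit without the filter, from which the TOX difference was taken, CA8 passed as lower, with a difference of -0.66 (adjusted p = 0.00115) whose size is uncertain at this level. That fit called 4 of all 140 neighbours, 2 higher and 2 lower, against 4.21% of all genes.

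Near TOX4, SLC7A7, an amino acid transporter subunit, was the 1 neighbour of 12 tested that passed (8.33%, against 5.29% of all genes tested). Its values were 7.76, 7.76 and 7.67 in the laminin α1 arrays, against 6.87, 6.76 and 6.84 in the control arrays. SLC7A7 rose 1.87-fold (limma adjusted p = 2.9e-05), while the groups overlapped for TOX4 itself. No tested neighbour of FBRSL1 (0 of 19), FBRS (0 of 18) or TOX2 (0 of 18) passed in limma, with 0, 1 and 1 at an unadjusted p under 0.05.

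**Figure D3:**
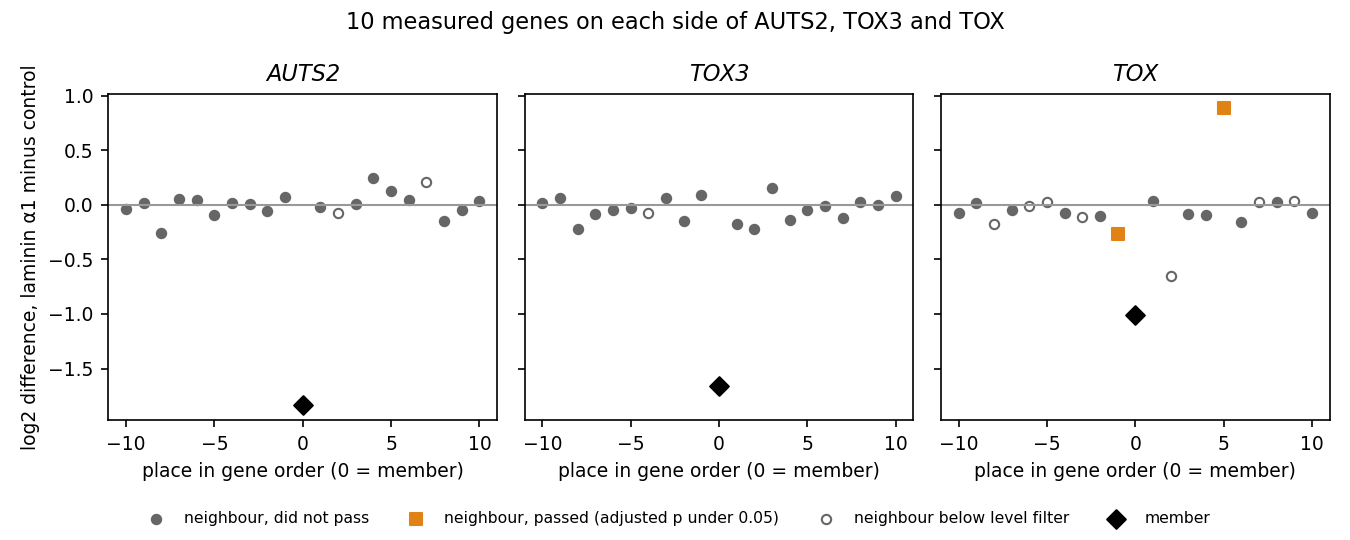
Log2 difference, laminin α1 minus control (y axis), of the 10 measured genes on each side of AUTS2, TOX3 and TOX, by place in gene order with the member at 0. The tested neighbours of AUTS2 run from -0.26 to 0.25 and those of TOX3 from -0.22 to 0.15, and none passed. CLVS1 (0.88) and NSMAF (-0.27) passed on either side of TOX.

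The proteins that work with AUTS2 were read from lists of PRC1 and of the RAC and CDC42 pathway. Of 23 tested PRC1 subunits and partners, 0 passed in limma, against 5.29% of all genes tested, and 7 had an unadjusted p under 0.05, against 16.7%. The median difference was 0.0060, against -0.01 over all genes tested. The groups did not overlap for 5 of the 23, against 21.6% of all genes tested. These were CBX6 (0.33, adjusted p = 0.0875), RING1 (0.28, adjusted p = 0.0900), PHC1 (0.21, adjusted p = 0.102) and PCGF1 (0.24, adjusted p = 0.140), PRC1 subunits with higher values in the laminin α1 arrays, and CSNK2A2, a casein kinase 2 subunit with lower values (-0.15, adjusted p = 0.228). The 7 with an unadjusted p under 0.05 were these 5 and MGA (-0.25, limma adjusted p = 0.194) and PCGF6 (-0.23, adjusted p = 0.272). MGA and PCGF6 had lower mean values in the laminin α1 arrays, and their groups overlapped. PCGF3 and PCGF5, the ring finger subunits of the PRC1 forms that hold AUTS2, are given for that role, after their values were seen. PCGF3 had 8.65, 8.59 and 8.50 in the laminin α1 arrays, against 8.57, 8.65 and 8.55 in the control arrays, a difference of -0.0094 (95% interval -0.16 to 0.14). PCGF5 had 7.86, 7.70 and 8.05 in the laminin α1 arrays, against 8.00, 7.98 and 8.06 in the control arrays, a difference of -0.14 (95% interval -0.34 to 0.06). The groups overlapped for both, and neither passed.

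Among 21 tested regulators of RAC and CDC42, 1 rose and 1 fell (9.52%, against 5.29% of all genes tested), with a median difference of 0.02. ELMO1 and ELMO2 are scaffolds that join DOCK proteins to activate RAC1. ELMO1 had 5.99, 6.23 and 6.06 in the laminin α1 arrays, against 6.79, 6.70 and 6.63 in the control arrays. Every laminin α1 array was below every control array, and ELMO1 fell 1.53-fold, by 0.61 on the log2 scale (SE 0.08, limma adjusted p = 0.00139). With the mean of the probe sets of a gene in place of the brightest, the limma adjusted p of ELMO1 was 0.0106. ELMO1 was not tested with the filter at the 50th percentile. ELMO2 had 8.84, 8.78 and 8.71 in the laminin α1 arrays, against 8.50, 8.49 and 8.54 in the control arrays. ELMO2 rose 1.20-fold (limma adjusted p = 0.0419), and the call was lost without laminin α1 replicate 1 (adjusted p = 0.0965) or 2 (adjusted p = 0.164), or control replicate 1 (adjusted p = 0.127), 2 (adjusted p = 0.200) or 3 (adjusted p = 0.0877). PREX1, a RAC exchange factor that binds AUTS2 in mouse neurons and is named for that, did not pass, at 5.58 in laminin α1 and 5.49 in control arrays, near the level filter.

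Partners of the TOX proteins were read in the same way. Of 11 tested genes of CREB-dependent transcription, 1 fell and 0 rose, or 9.09%, against 5.29% of all genes tested. CRTC3, a coactivator of CREB, had 8.14, 8.16 and 7.97 in the laminin α1 arrays, against 8.61, 8.46 and 8.42 in the control arrays. CRTC3 fell 1.33-fold (limma adjusted p = 0.0131), and did not pass without control replicate 1 (adjusted p = 0.0600) or 2 (adjusted p = 0.0536). CITED1, a coactivator known as a binding partner of TOX3 and named for that, had 6.61, 6.40 and 6.49 in the laminin α1 arrays, against 6.91, 6.83 and 6.65 in the control arrays. Its groups did not overlap, but the difference of -0.30 (SE 0.09) did not pass (limma adjusted p = 0.0916). Groups did not overlap for 4 of the 11, against 21.6% of all genes tested, and the same 4 had an unadjusted p under 0.05, against 16.7%. Besides CRTC3 and CITED1 these were CRTC1 (0.23, limma adjusted p = 0.277) and CREB3 (0.16, adjusted p = 0.298), with higher values that did not pass. Of the 5 partners of TOX4 in the PTW/PP1 phosphatase, 0 passed in limma and 0 had an unadjusted p under 0.05, with differences from -0.21 to 0.07.

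Of 26 tested genes of other HMG-box proteins, such as SOX and TCF factors and HMGB proteins, 0 passed in limma, against 5.29% of all genes tested, and 5 had an unadjusted p under 0.05, against 16.7%. All 5 had lower means in the laminin α1 arrays. They were HMGXB4 (-0.23, limma adjusted p = 0.0869), HMGB3 (-0.24, adjusted p = 0.129), HBP1 (-0.31, adjusted p = 0.146), SOX4 (-0.20, adjusted p = 0.193) and SMARCE1 (-0.26, adjusted p = 0.207). Groups did not overlap for 5 of the 26, against 21.6% of all genes tested. The differences of the 26 ranged from -0.31 to 0.09, with a median of -0.02. Genes of luminal epithelium, the breast cell type in which TOX3 is expressed, had 4 of 16 tested members lower and 1 higher (31.2%, against 5.29% of all genes tested), with a median of -0.08. The list was chosen with earlier results of these data known, so this share carries no weight of its own. The 11 that did not pass include FOXA1 (-0.05), SPDEF (-0.07), XBP1 (-0.09) and GATA3 (0.19), named after their values were seen. The mean per array of the luminal list was 8.15 to 8.18 in laminin α1 and 8.31 to 8.37 in control arrays.

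TFF3, a secreted trefoil peptide of goblet cells, had 7.19, 7.07 and 6.75 in the laminin α1 arrays, against 8.66, 8.65 and 8.51 in the control arrays, and fell 3.04-fold (limma adjusted p = 1.43e-05). AGR2, a disulfide isomerase of mucus-secreting cells, had 9.47, 9.68 and 9.61 in the laminin α1 arrays, against 10.5, 10.8 and 10.9 in the control arrays, and fell 2.23-fold (limma adjusted p = 8.63e-05). PROM1, a membrane glycoprotein of progenitor cells, had 9.15, 9.33 and 9.72 in the laminin α1 arrays, against 10.2, 10.2 and 10.3 in the control arrays, and fell 1.80-fold (limma adjusted p = 0.00274). These 3 genes are also known from intestinal secretory or progenitor cells, and none of their groups overlapped. ELF5, an ETS factor of alveolar luminal cells, went the other way, with 8.13, 8.18 and 8.46 in the laminin α1 arrays, against 7.01, 7.12 and 7.33 in the control arrays. ELF5 rose 2.15-fold (limma adjusted p = 0.000175). TFF1, another trefoil peptide and the remaining gene that passed, had an adjusted p of 0.0159 in limma, which was 0.0768 without control replicate 1 and 0.0572 without control replicate 3. With all probe sets tested separately, the limma adjusted p of TFF1 was 0.0738.

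**Figure D4:**
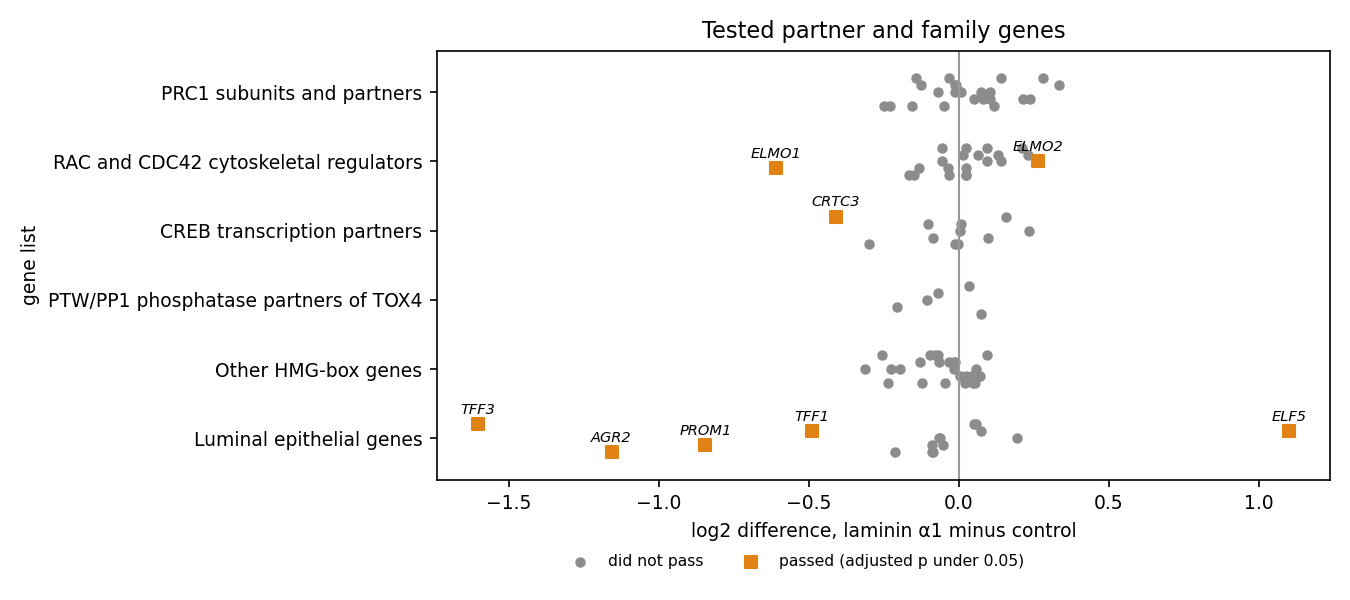
Log2 difference, laminin α1 minus control (x axis), of every tested gene of 6 lists, with genes that passed as orange squares with their names and the others as grey points (vertical offsets within a list carry no meaning). PRC1, PTW/PP1 and other HMG-box genes hold no square, and the luminal epithelial list runs from TFF3 at -1.60 to ELF5 at 1.101.

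To find genes with a pattern like AUTS2 or TOX3, each gene was centred on its mean over the 6 arrays and the root mean square difference of the centred log2 values was taken. A small value means alike in size and direction in every array, and since the arrays fall into 2 groups, it follows mainly the difference between the groups. For AUTS2 the nearest of the other 13811 genes tested was PLXDC2, a cell surface protein with a plexin-like domain, at 0.0672. TOX3 was second at 0.132, followed by CDH17, the cadherin of intestinal epithelium, at 0.147, CAP2, an actin regulator, at 0.157 and ANXA13, an annexin of intestinal epithelium, at 0.170. AUTS2 was number 8 in the order for TOX3. Both genes were picked for a large difference in the same direction, which the measure follows, so their nearness comes with that choice.

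For TOX3 the nearest genes were ANXA13 at 0.0844, RETNLB, a resistin-like peptide secreted by goblet cells, at 0.0973, TFF3 at 0.108, JPH1, a junctophilin of membrane contacts, at 0.114 and PLXDC2 at 0.124. ANXA13 had 6.68, 6.42 and 6.32 in the laminin α1 arrays, against 8.07, 8.00 and 8.07 in the control arrays. RETNLB had 6.76, 6.77 and 6.74 in the laminin α1 arrays, against 8.26, 8.16 and 8.34 in the control arrays. PLXDC2 had 5.57, 5.61 and 5.60 in the laminin α1 arrays, against 7.33, 7.50 and 7.30 in the control arrays. In all 3, as in AUTS2 and TOX3, the laminin α1 arrays were the low ones and no array crossed over. The likeness is a description of these 6 arrays, and nothing about shared control follows from it.

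**Figure D5:**
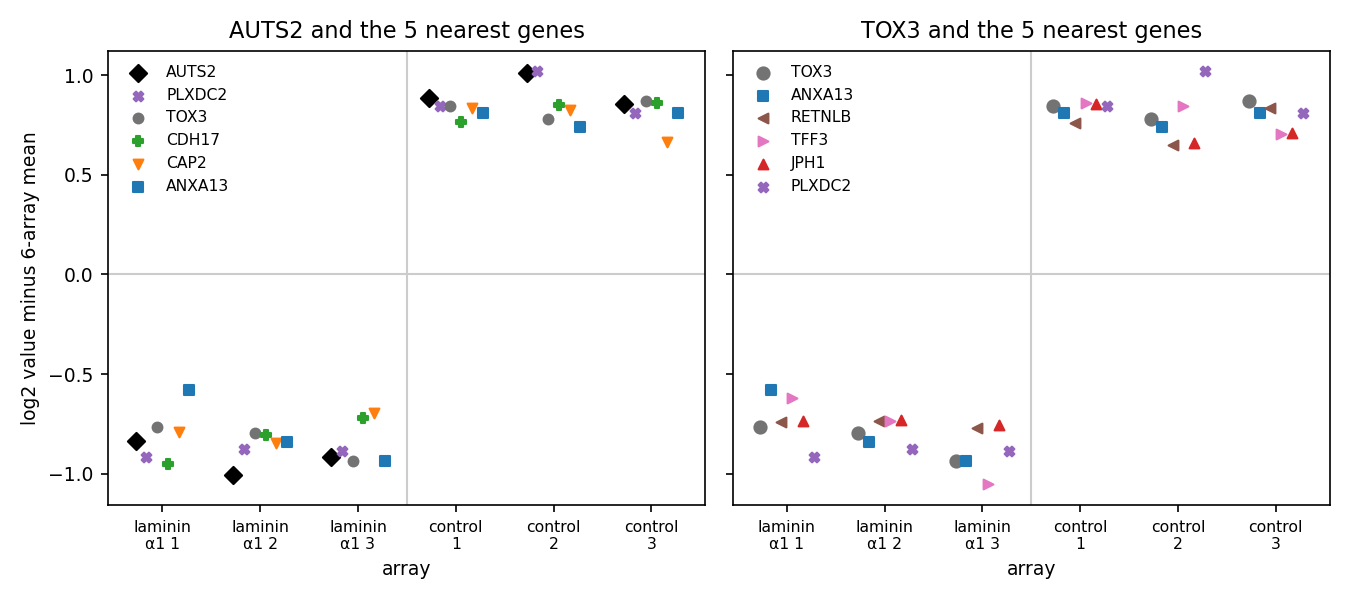
Log2 values minus the 6-array mean (y axis) of AUTS2 (left) and TOX3 (right), each with the 5 tested genes nearest to it, in the 3 laminin α1 arrays and then the 3 control arrays (horizontal offsets only separate the points). Every gene shown is below its mean in all laminin α1 arrays and above it in all control arrays, which comes with the choice by nearness.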

How the data were processed

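The values are the deposited log2 expression values of 33297 probe sets on 6 arrays, 3 per group. The authors used RMA in Affymetrix Expression Console 1.1 (per the submitters' processing notes), and the values were used as deposited. RMA equalizes the distributions of arrays, so a shift of all genes together cannot be seen. Exactly 1 gene symbol was annotated for 19460 probe sets, and the brightest was kept for each of 18417 genes. Genes with a mean above the 25th percentile (log2 5.50) were tested, 13812 in all.

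Differences are laminin α1 minus control, fitted without covariates by limma 3.58.1 (lmFit, then eBayes; R 4.3.3). Adjusted p values are Benjamini-Hochberg values over all genes tested, with a threshold of 0.05. The fit was run on simulated data with planted changes and independent noise in each array, which checks the code and not the calls reported here. The 3 arrays per group limit the precision (median SE 0.0754). Gene order came from the RefSeq table of GRCh38.p14, to which 18388 genes matched by gene ID.

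The members and lists were chosen with earlier results of these data known. The genes named were the members, LAMA1, up to 4 passing genes of each list with the smallest p, passing neighbours, and the 5 genes nearest to AUTS2 and to TOX3. Other genes were named after their values were seen, for a role or position or to complete a count, and not all are marked so. Alternatives covered filters, probe set summaries, normalization, variance models, weights of arrays, a replicate block, thresholds, and each array left out.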

Additional observations from a re-analysis of the deposited data

How the results depend on the processing

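Across the settings the AUTS2 difference was -1.98 to -1.79 and the TOX3 difference -1.70 to -1.59. Since both were picked for this difference, and AUTS2 exceeds the level filter through its control arrays, passing again is no sign of stability. AUTS2, TOX2 and TOX were not tested with the filter at the 50th percentile, which left 1 member passing. Settings without the filter, combined after the data were seen with other choices, gave TOX differences from -1.10 to -0.90. FBRSL1, FBRS, TOX2 and TOX4 passed in no setting, and their signs changed among settings (FBRSL1 from -0.07 to 0.03, TOX4 from -0.05 to 0.06).

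Whether the replicate numbers pair the arrays is not given. Deviations of arrays numbered 1, 2 and 3 from their group means correlated across groups at 0.390, 0.0216 and 0.530. Both arrays numbered 1 and both numbered 3 correlated best with their own number. Laminin α1 replicate 2 correlated better with control replicate 1 (0.162), and control replicate 2 with laminin α1 replicate 1 (0.144). A part shared by number is thus possible, and the main fit holds no term for it. As a replicate block the numbers gave 1596 of 13812 genes tested. By list these were 3 of 23 PRC1, 3 of 26 HMG-box, 2 of 11 CREB, 1 of 5 PTW/PP1 and 6 of 117 neighbouring genes. Array weights, which ranged from 0.317 to 10.7 in an estimate that did not fully converge, gave 4691 of 13812 genes tested. By list these were 9 of 23 PRC1, 10 of 21 RAC and CDC42, 5 of 11 CREB and 6 of 26 HMG-box genes. The luminal list had 9 of 16, the colon list 3 of 9, the neural list 1 of 3 and the neighbours 26 of 117. Each list count is to be read against the share of all genes tested that passed in the same setting. An adjusted p under 0.01 gave 393 genes, 1 in the RAC list and 0 in the CREB list. A fold of at least 2 gave 67 genes, 3 in the luminal list and 0 in the RAC, CREB, colon and neighbour counts. The RAC list had 1 with the filter at the 50th percentile, with all probe sets tested separately, with centred arrays and with the trended fit, and the CREB list 0 with all probe sets tested separately. Leaving out 1 array gave 405 genes (without control replicate 2), 429 (without laminin α1 replicate 2) and up to 1211 (laminin α1 replicate 3). The ranges were 2 to 2 members, 0 to 3 PRC1, 1 to 2 RAC, 0 to 2 CREB, 0 to 1 HMG-box, 4 to 6 luminal, 0 to 1 colon and 2 to 4 neighbouring genes. The causes were not tested.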
